A study of Mus musculus with 21 samples.

Results

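Neurons of a mouse embryonic stem cell line that carries Lmx1a under a nestin enhancer were compared at day 10 with neurons of wild type cells at the same day. The comparison used 6 of the 21 arrays of the series, 3 of each group, and all 18193 genes that the array annotation names, each read from its most variable probe set. The Lmx1a line had received sonic hedgehog (SHH) and FGF8, and its cells are labelled as immature dopamine neurons of the midbrain. The wild type cells had received FGF8. Whether they also had SHH is uncertain, since their titles name it, their source names leave it out, and their descriptions place them in the dorsal midbrain. Line and SHH therefore cannot be told apart here. The nestin enhancer is active in neural progenitors, whereas the RNA came from purified post-mitotic neurons. Nothing in the labels says whether the line is 1 clone or whether the arrays came from separate differentiations beyond the words biological replicate. The p-values and standard errors below rest on the spread of each gene between arrays within all 7 groups of the series. Arrays of other lines, days and treatments thus enter that spread.

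The values are log2 signals, deposited with the median of each probe set taken off, so a value of 0 means the centring median of that probe set and not absence, and genes cannot be ranked by level. Every change below is a log2 difference, the Lmx1a line minus the wild type, with its standard error from limma, and a gene was called when its adjusted p was under 0.05 and its change was 1 or more in size. The median change over all genes was 0.03. Called shares over all genes were 1.96% higher and 1.36% lower, and they are given beside list counts below. The lists were written with earlier results of these data known. Of all 18193 genes 8653 lay within 0.5 of their centring median on all 6 arrays. A list count above these shares is therefore a description and no test. A call is said to be lost where leaving out the named array (line or wild type replicate) took the adjusted p or the change past its threshold, with the value without that array in parentheses. Signals of the bioC hybridization controls divided the 21 arrays of the series, and of the 6 compared the low-bioC set holds the 3 arrays of the line with wild type replicates 1 and 2. A change within that set is therefore the change without wild type replicate 3, and a direction kept there is no separate check. The fit within the set used the low-bioC arrays of the series alone. Its spread thus rests on fewer arrays, and a call lost there can hold without wild type replicate 3. Nothing in the labels says what the bioC division is. Wild type replicate 2 stood apart from the other arrays of its group. Replicates 1 and 3 of the line each stood apart in single genes. The line had low labelling controls on each array, and these values are given after the gene groups. Since the values are centred, the presence of general neuronal markers could not be checked.

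In the embryo, dopaminergic neurons of the midbrain arise from the floor plate, a strip of cells along the ventral midline that secretes Shh and expresses the forkhead factors Foxa1 and Foxa2. Lmx1a sets the dopaminergic fate there, and its absence leaves other midline fates. The neurons then turn on Nr4a2 (Nurr1), which drives the enzymes and transporters of dopamine, and Pitx3, which marks their later maturation.

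The promoters of 4 genes that rose are shown because each holds a motif of a factor class tied to midline or dopaminergic genes. They are 300 bases each from RefSeq (GRCm38.p6), running from 250 bases before to 50 after the annotated start, with the motif in capitals. Th and Slc18a2 hold the cAMP response element TGACGTCA at positions -45 and -4 from the start. Ddc holds AAAGGTCA, the site of Nr4a monomers, on the reverse strand at -73. Foxa1 holds the forkhead site TGTTTAC on the reverse strand at -141. The windows are chr7:142899946-142900245 (minus strand) for Th, chr19:59260628-59260927 (plus strand) for Slc18a2, chr11:11898095-11898394 (minus strand) for Ddc, of which 2 windows are annotated, and chr12:57546062-57546361 (minus strand) for Foxa1.
Th: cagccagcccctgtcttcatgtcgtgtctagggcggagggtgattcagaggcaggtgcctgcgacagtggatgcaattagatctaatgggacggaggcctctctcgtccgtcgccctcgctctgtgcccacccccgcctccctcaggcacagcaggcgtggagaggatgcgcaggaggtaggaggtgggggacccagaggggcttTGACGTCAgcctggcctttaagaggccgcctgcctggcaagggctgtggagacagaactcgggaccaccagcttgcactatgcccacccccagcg
Slc18a2: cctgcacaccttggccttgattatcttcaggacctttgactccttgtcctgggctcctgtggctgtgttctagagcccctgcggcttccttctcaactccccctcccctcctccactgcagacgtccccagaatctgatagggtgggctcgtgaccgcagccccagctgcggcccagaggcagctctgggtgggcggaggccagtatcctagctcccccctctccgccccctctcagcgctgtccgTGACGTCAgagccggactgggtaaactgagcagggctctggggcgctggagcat
Ddc: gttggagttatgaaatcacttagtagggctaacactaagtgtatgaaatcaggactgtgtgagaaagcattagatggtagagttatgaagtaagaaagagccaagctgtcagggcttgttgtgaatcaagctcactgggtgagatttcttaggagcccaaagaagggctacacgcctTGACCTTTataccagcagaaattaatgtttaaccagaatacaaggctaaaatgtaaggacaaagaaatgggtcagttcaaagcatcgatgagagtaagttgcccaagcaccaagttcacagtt
Foxa1: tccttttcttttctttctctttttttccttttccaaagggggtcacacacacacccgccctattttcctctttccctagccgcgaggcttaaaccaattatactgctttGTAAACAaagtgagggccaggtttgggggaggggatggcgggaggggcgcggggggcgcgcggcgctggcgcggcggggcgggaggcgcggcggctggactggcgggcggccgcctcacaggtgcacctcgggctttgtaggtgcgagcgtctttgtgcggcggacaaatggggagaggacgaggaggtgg

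Both strands were searched for these 3 motifs and for the Gli site TGGGTGGTC, the homeodomain palindrome TTAATTAA and the X-box of Rfx factors. Among the called genes of the floor plate list 5 of 11 had a promoter entry, and among those that rose in the dopaminergic list 6 of 6. Over 27025 genes with a promoter, 2.03% held the cAMP response element, 1.7% the Nr4a site, 4.05% the forkhead site, 0.289% the Gli site, 0.714% the palindrome and 0.529% the X-box. No promoter of these 11 genes held more than 1 of the 6 motifs. The last 3 were in none of the 11 windows.

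The 4 marker genes of the line rose. Lmx1a itself measured 8.18, 8.06 and 8.33 in the Lmx1a line, against 2.90, 3.05 and 1.90 in the wild type, so the groups did not overlap and the change was 5.57 ± 0.95 (adjusted p = 0.003). Whether its 1 probe set reads the driven gene is not known here. Foxa2 measured 2.0, 2.25 and 1.51 in the Lmx1a line, against -2.67, -4.11 and -2.92 in the wild type, and its change was 5.15 ± 0.51 (adjusted p = 4.93e-05). Corin, a protease on the surface of floor plate cells, measured 4.70, 3.31 and 3.70 in the Lmx1a line, against -0.74, -2.11 and -1.28 in the wild type, with a change of 5.28 ± 0.66 (adjusted p = 0.00035). Nr4a2 measured 3.66, 4.44 and 3.83 in the Lmx1a line, against -0.18, -0.62 and -0.45 in the wild type, with a change of 4.39 ± 0.77 (adjusted p = 0.0039). All 3 arrays of the line lay above all 3 wild type arrays for each of these 4 genes, which held for 15.9% of all genes in one direction or the other. The 4 calls held without any single array of the comparison.

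**Figure D1:**
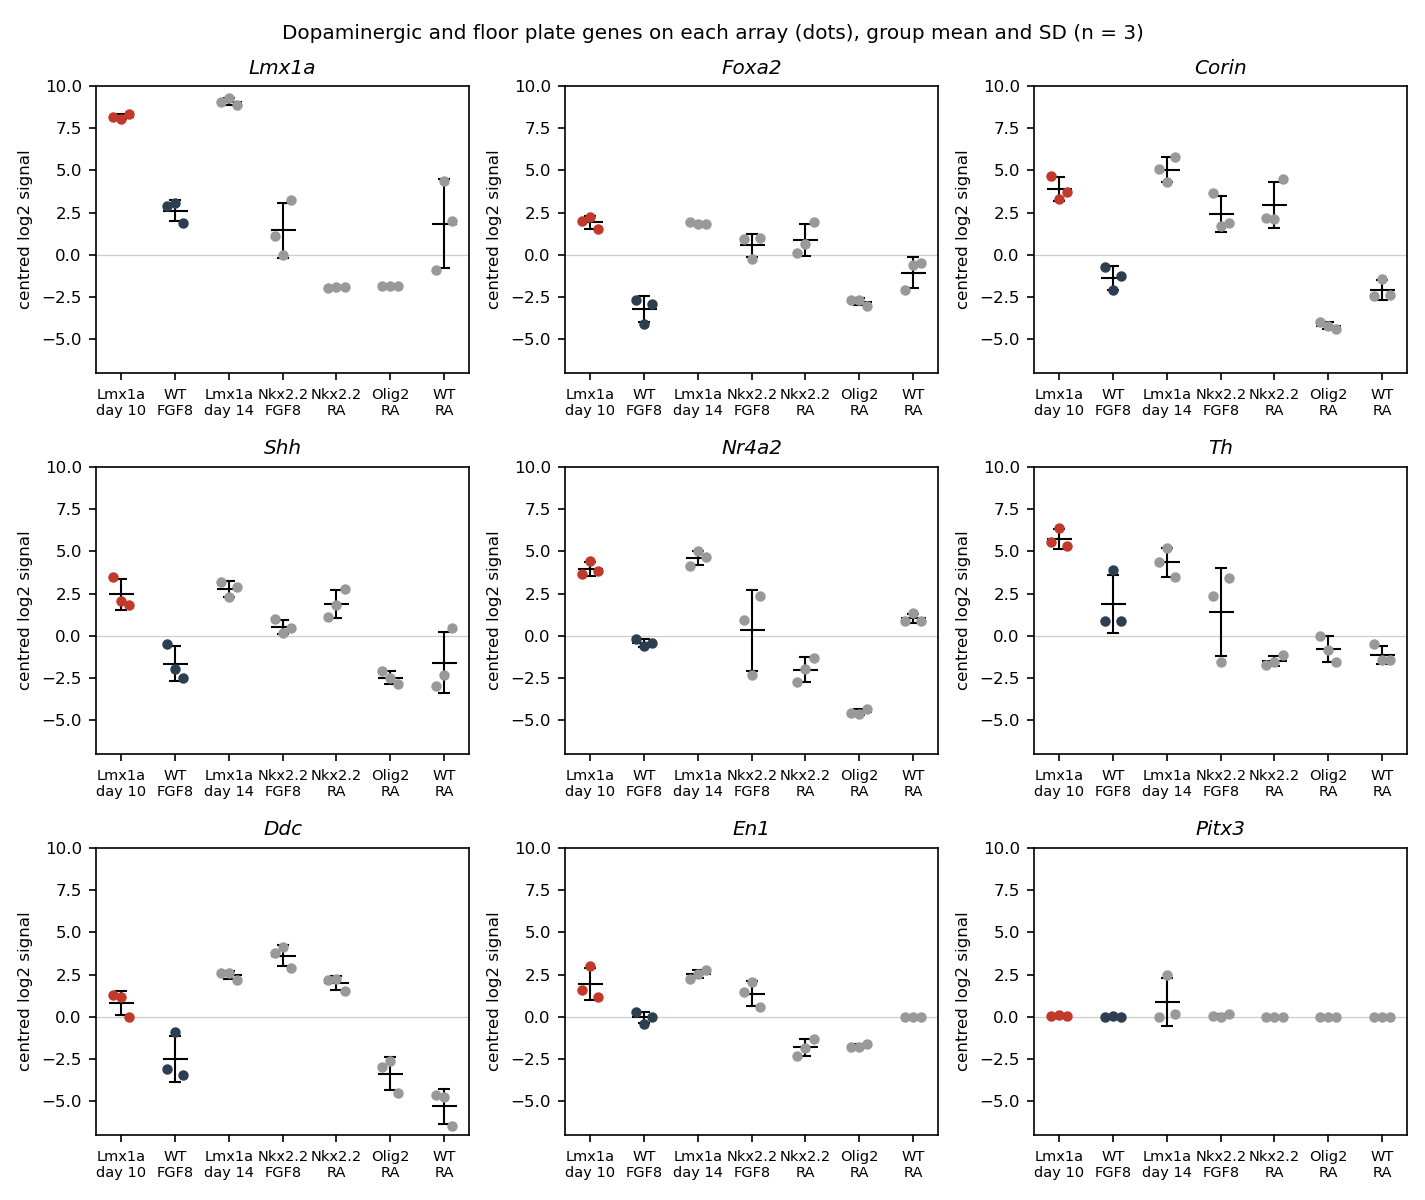
Centred log2 signal (y axis) of 9 genes in the 7 groups of the series (x axis). Dots are arrays, bars are group means with SD (n = 3); red is the Lmx1a line at day 10, dark blue the FGF8 wild type and grey the other groups. Lmx1a stood at 8.06 to 8.33 in the line and 1.90 to 3.05 in the wild type, and Pitx3 stayed within 0.11 of 0 in both.

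Floor plate genes rose as a group. Of 20 listed genes 19 were tested, 11 were higher and 0 lower, with a median change of 3.07, against 1.96% of all genes called higher and 1.36% called lower. The arrays of all 11 called members were apart between the groups, as were those of 353 of the 356 genes called higher. The mean of the list was 2.08 to 2.52 in the line's arrays and -1.30 to 0.08 in the wild type arrays. Labelling control probe sets were low in the same 3 arrays of the line, and with them as a covariate 2 of the 11 calls held (Foxa1 and Foxa2), in a fit given after the gene groups. In these RNA samples fewer cells of a type and less RNA per cell cannot be told apart.

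Among the transcription factors of the floor plate Foxa1 and Ferd3l rose. Foxa1 measured 2.64, 2.27 and 1.67 in the Lmx1a line, against -2.23, -3.75 and -2.48 in the wild type, a change of 5.01 ± 0.45 (adjusted p = 1.98e-05). Ferd3l, a basic helix-loop-helix factor of the ventral midline, measured 4.68, 3.52 and 2.09 in the Lmx1a line, against -0.65, -0.52 and -0.62 in the wild type, a change of 4.03 ± 0.58 (adjusted p = 0.000958), with the wild type arrays close together and the line's arrays spread over more than 2 units. Otx2, the factor that defines forebrain and midbrain, measured 7.07, 7.25 and 7.48 in the Lmx1a line, against 5.51, 2.52 and 5.52 in the wild type. Its groups did not overlap, but its change of 2.75 ± 1.15 (adjusted p = 0.232) was not called and was 1.75 without wild type replicate 2. Nkx6-1, a ventral progenitor factor, at 1.40 ± 0.42 (adjusted p = 0.0752), and the proneural factor Neurog2 at 1.37 ± 0.62 (adjusted p = 0.28) were not called either. Lmx1b, Msx1 and Msx2 had changes of 0.51 ± 0.49, -0.02 ± 0.21 and -0.15 ± 0.10, and the 2 Msx genes were within 0.5 of their median on all 6 arrays.

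Genes of secreted floor plate proteins rose too. Shh measured 3.49, 2.03 and 1.84 in the Lmx1a line, against -0.48, -1.95 and -2.50 in the wild type, and its change was 4.10 ± 0.75 (adjusted p = 0.00524). Ntn1 (netrin 1), which draws commissural axons to the midline, measured 3.29, 2.84 and 1.87 in the Lmx1a line, against -0.89, -2.63 and -2.88 in the wild type, and its change was 4.80 ± 1.06 (adjusted p = 0.0164), a call lost without line replicate 1 (4.48, adjusted p = 0.0557) or wild type replicate 3 (4.42, adjusted p = 0.0661). Spon1 (F-spondin), a matrix protein of the floor plate, measured 1.93, 0.54 and 0.46 in the Lmx1a line, against -2.02, -4.09 and -3.22 in the wild type, and its change was 4.09 ± 0.60 (adjusted p = 0.00108). For all 3 the highest array was replicate 1 of the line. Sulf1, which trims heparan sulfate, changed by 4.22 ± 0.58 (adjusted p = 0.000713). Wnt5a, a non-canonical Wnt ligand of the ventral midbrain, changed by 3.07 ± 0.53 (adjusted p = 0.00355). The axon repellent Slit1 was the weakest call, at 1.73 ± 0.42 (adjusted p = 0.0291), and it was lost without line replicate 1 or 2 or wild type replicate 2 or 3 (1.51 to 1.82, adjusted p = 0.052 to 0.108). Bmp7, at 2.08 ± 0.75 (adjusted p = 0.151), and the Wnt agonist Rspo2, at -0.82 ± 1.43 (adjusted p = 0.802), were not called. Another probe set of Bmp7 was called, at 2.55 (adjusted p over all probe sets = 0.0196). Rspo2 had 5.23 and 5.14 in wild type replicates 1 and 3 but -2.39 in replicate 2. With the bioC division as a block 11 of the 11 floor plate calls held. Within the low-bioC set all 11 kept their direction and 7 their call.

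Dopaminergic neuron genes divided. Of 32 listed genes 28 were tested, 6 were higher and 1 lower, and the median change was 0.06. Over all genes 1.96% were called higher and 1.36% lower. Th, the rate-limiting enzyme of dopamine synthesis, measured 5.55, 6.41 and 5.30 in the Lmx1a line, against 0.90, 3.90 and 0.86 in the wild type. Wild type replicate 2 lay 3 units above the other wild type arrays but below the line, and the change was 3.87 ± 1.03 (adjusted p = 0.0435). The call of Th rested on every array but that one, since it was lost without line replicate 1, 2 or 3 or wild type replicate 1 or 3 (3.35 to 4.09, adjusted p = 0.0647 to 0.17). Ddc, which makes dopamine from L-DOPA, measured 1.30, 1.20 and 0.00 in the Lmx1a line, against -3.07, -0.92 and -3.43 in the wild type, a change of 3.31 ± 0.67 (adjusted p = 0.0098). It was lost without wild type replicate 1 (3.01, adjusted p = 0.054) or wild type replicate 3 (2.83, adjusted p = 0.0503), and its other probe set changed by 0.02. Slc18a2, the vesicular monoamine transporter, measured 0.78, 0.38 and 0.44 in the Lmx1a line, against -1.13, 0.00 and -1.33 in the wild type. Its change was 1.35 ± 0.33 (adjusted p = 0.0309), a call lost without line replicate 1 or 3 or wild type replicate 1 or 3 (1.10 to 1.40, adjusted p = 0.0529 to 0.127). The 3 genes of dopamine synthesis and packing thus had their highest wild type value in replicate 2.

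Factors of the lineage gave firmer calls. Of the 6 probe sets of Nr4a2, 4 changed by 3.54 to 4.39 and were called over all probe sets, and the 2 others, at -0.03 and 0.37, had SDs of 0.07 and 0.23 over the 21 arrays. Foxp1, a forkhead repressor, measured -0.06, 0.64 and 1.14 in the Lmx1a line, against -2.12, -2.33 and -2.10 in the wild type. Its change was 2.76 ± 0.56 (adjusted p = 0.00951), and 7 of its 8 probe sets were called. En1, the engrailed factor needed for survival of these neurons, measured 1.61, 3.01 and 1.19 in the Lmx1a line, against 0.28, -0.40 and 0.00 in the wild type, a change of 1.97 ± 0.41 (adjusted p = 0.0112). Its paralog En2 went the other way, with -0.55, -0.48 and -2.07 in the Lmx1a line, against 2.29, 1.26 and 2.23 in the wild type, and fell by 2.96 ± 0.38 (adjusted p = 0.000424). For both engrailed genes the groups were apart and no single array carried the call.

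Genes of mature dopaminergic neurons were not called. Pitx3 measured 0.07, 0.11 and 0.05 in the Lmx1a line, against 0.00, 0.03 and -0.01 in the wild type, and the dopamine transporter Slc6a3 measured 0.13, 0.04 and -0.02 in the Lmx1a line, against 0.00, 0.04 and -0.03 in the wild type. The changes were 0.07 ± 0.42 (adjusted p = 0.948) and 0.05 ± 0.33 (adjusted p = 0.957). Slc6a3 had a mean of 4.31 in the same line at day 14, whereas Pitx3 measured -0.01, 2.50 and 0.16 there. The nicotinic subunit Chrnb3, the channel Kcnj6, the neurotensin receptor Ntsr1 and the enzyme Maob changed by 0.03 ± 0.04, -0.19 ± 0.12, 0.06 ± 0.26 and 0.03 ± 0.34. The autoreceptor Drd2 (0.42 ± 0.38), the subunit Chrna6 (0.32 ± 0.17) and the retinaldehyde dehydrogenase Aldh1a1 (0.27 ± 0.48) each had 1 array of the line above the rest, at 1.20, 0.96 and 0.64. The probe sets used for Chrnb3, Kcnj6 and Chrna6 varied little, with SDs of 0.04, 0.15 and 0.21 over the 21 arrays. Their lack of a call therefore says nothing about stage. 

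Others of the list varied without a call. Sox6, a factor of the substantia nigra in mice, was at 1.66 ± 0.52 (adjusted p = 0.0884) with groups apart, and another of its probe sets was called, at 2.05 (adjusted p over all probe sets = 0.0115). The GDNF receptor Ret was at 0.93 ± 0.37 (adjusted p = 0.2), and its co-receptor Gfra1 was at -0.71 ± 0.67 (adjusted p = 0.684). The peptide Cck was high in replicate 2 of the line alone, at 3.18, where the other 2 arrays of the line had 0.56 and 0.45, and its change of 1.46 (adjusted p = 0.506) was 0.57 without that array. Gch1, which makes the cofactor of Th, was at 0.60 ± 0.65 (adjusted p = 0.722), with 0.74 in wild type replicate 2 against -1.73 and -2.18 in the other wild type arrays. Bnc2 at -1.94 ± 0.58 (adjusted p = 0.0726), Chrna4 at -1.44 ± 0.50 (adjusted p = 0.133) and Pbx3 at -1.37 ± 0.45 (adjusted p = 0.109) were on the lower side. Maoa at -0.29 ± 0.68, Calb1 at -0.31 ± 0.72, Sncg at -0.40 ± 0.51 and Dlk1 at -0.98 ± 0.81 had overlapping arrays. Of the 7 calls in the dopaminergic list 5 held with the bioC division as a block and 2 within the low-bioC set, with all 7 in the same direction, and 0 held with the labelling controls as a covariate.

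Lmx1a also marks the neighbouring lineage of the subthalamic nucleus in the embryo. Of 11 tested genes of that lineage 1 was higher and 6 were lower. Of these 7 calls 5 held with the bioC division as a block, 1 within the low-bioC set and 0 with the labelling covariate. Foxp2 measured 2.32, 2.86 and 1.01 in the Lmx1a line, against -2.48, -0.02 and -1.93 in the wild type, a change of 3.54 ± 0.71 (adjusted p = 0.00944), lost without wild type replicate 1 (3.04, adjusted p = 0.055). Of its 5 other probe sets 4 were called in the same direction. Calb2 (calretinin) measured -0.26, 0.00 and -0.86 in the Lmx1a line, against 3.25, 4.30 and 2.78 in the wild type and changed by -3.82 ± 0.70 (adjusted p = 0.00534). Dbx1, a progenitor factor, measured 0.58, 0.22 and 3.39 in the Lmx1a line, against 6.0, 4.03 and 6.65 in the wild type and changed by -4.16 ± 0.72 (adjusted p = 0.00352). Lhx1 changed by -2.93 ± 0.64 (adjusted p = 0.0158) and was lost without line replicate 1 (-2.35, adjusted p = 0.0648) or line replicate 2 (-2.69, adjusted p = 0.0529). Irx3 changed by -1.50 ± 0.25 (adjusted p = 0.00259). Barhl2 and Wnt8b were high in wild type replicates 1 and 3 only, at 3.41 and 3.26 for Barhl2 and 2.69 and 3.02 for Wnt8b, so their arrays overlapped. Barhl2 at -1.79 ± 0.48 (adjusted p = 0.046) lost its call without line replicate 1, 2 or 3 or wild type replicate 1 or 3 (-1.95 to -1.31, adjusted p = 0.0586 to 0.204), and Wnt8b at -1.89 ± 0.49 (adjusted p = 0.038) lost it without line replicate 1, 2 or 3 or wild type replicate 1 or 3 (-1.92 to -1.33, adjusted p = 0.0752 to 0.171). Barhl1 measured 1.20, 4.70 and 4.47 in the Lmx1a line, against 1.93, 0.05 and 1.58 in the wild type and was not called. Replicate 1 of the line lay apart there, 3 units below the other 2.

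**Figure D2:**
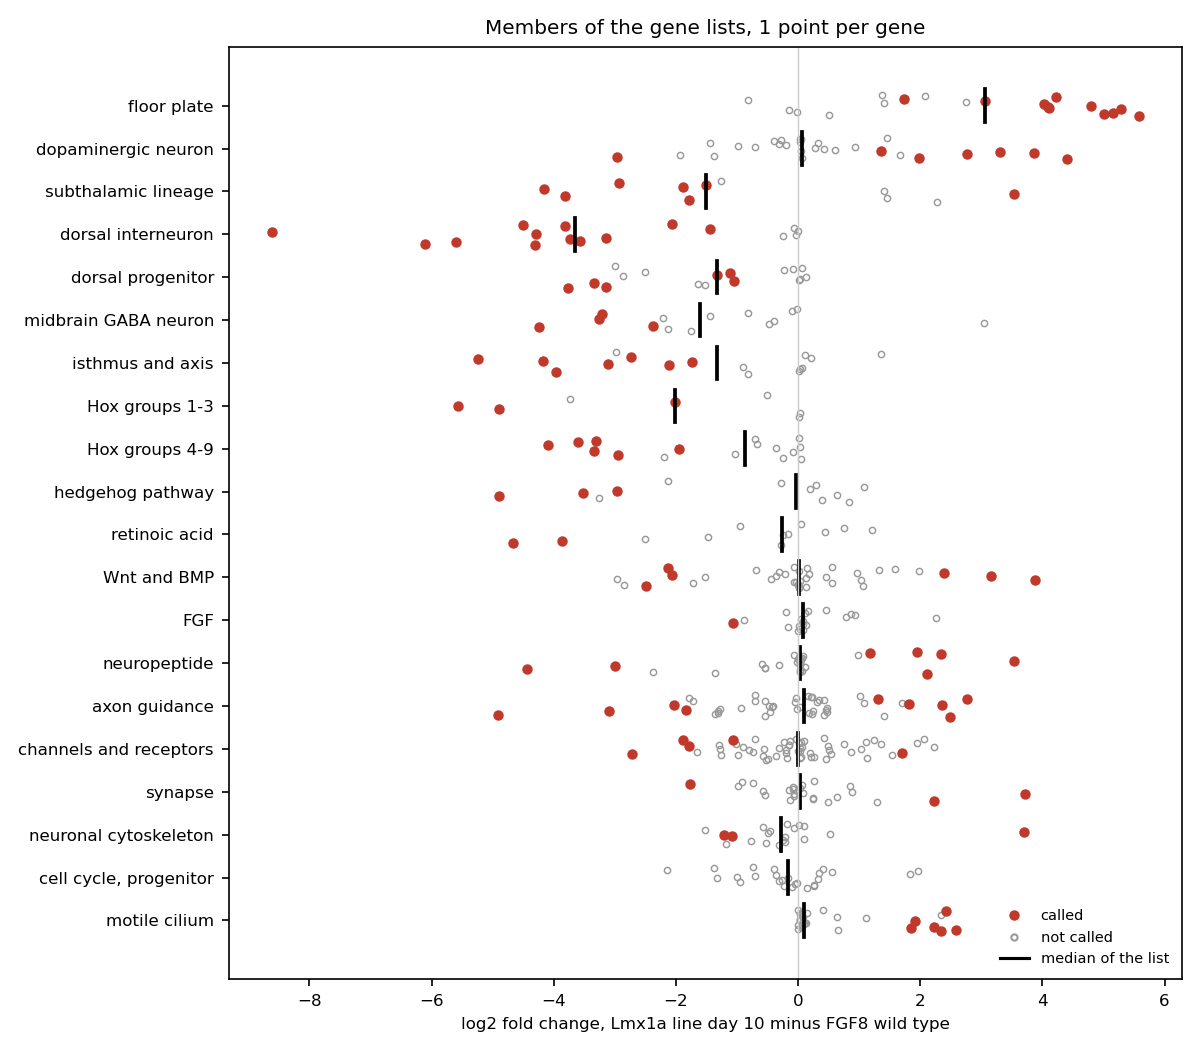
Log2 change of every tested member of 20 gene lists (x axis, Lmx1a line minus wild type; 1 point per gene; rows are lists). Filled red points were called, open grey points were not, and black bars are list medians. The floor plate list has its median at 3.07 and the dorsal interneuron list at -3.65.

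The dorsal interneuron list had the lowest median of the lists. Of 23 listed genes 16 were tested, and 12 were lower and 0 higher, with a median change of -3.65. Tfap2b, an AP-2 factor of dorsal interneurons and of the dorsal midbrain, measured 0.00, -0.07 and -0.08 in the Lmx1a line, against 9.20, 7.47 and 9.02 in the wild type. It fell by 8.61 ± 0.56 (adjusted p = 5.82e-07), the largest change of any gene. Its paralog Tfap2a measured 0.06, 0.08 and -0.01 in the Lmx1a line, against 4.67, 3.60 and 4.73 in the wild type and fell by 4.29 ± 0.25 (adjusted p = 3.66e-07). The neighbouring AP-2 gene Tfap2d, named after its values were seen, measured 0.12, 0.02 and -0.01 in the Lmx1a line, against 4.54, 1.03 and 4.04 in the wild type. In the line the values of these 3 AP-2 genes were 0.12 or less in size on every array.

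Lbx1, which specifies association interneurons of the dorsal hindbrain and cord, measured 0.09, 0.00 and -0.03 in the Lmx1a line, against 5.65, 6.72 and 4.50 in the wild type and fell by 5.60 ± 0.34 (adjusted p = 3.66e-07). Lhx9, a LIM factor of commissural neurons, measured 0.15, 0.09 and 2.88 in the Lmx1a line, against 8.04, 5.75 and 7.63 in the wild type and fell by 6.10 ± 0.89 (adjusted p = 0.00104). Replicate 3 of the line had 2.88 where the other 2 arrays had 0.15 and 0.09. Prdm8, a PR domain factor, fell by 4.51 ± 0.48 (adjusted p = 0.000105), and Nhlh2, a basic helix-loop-helix factor, by 2.07 ± 0.27 (adjusted p = 0.000508). Tlx3, a selector of glutamatergic dorsal neurons, measured 0.06, 0.06 and -0.05 in the Lmx1a line, against 4.91, 1.15 and 4.73 in the wild type and fell by 3.58 ± 0.65 (adjusted p = 0.00492). Pou4f1 (Brn3a) fell by 3.15 ± 0.53 (adjusted p = 0.00271). Of the 12 calls 11 held without any single array, 11 with the bioC division as a block and 8 within the low-bioC set. Lhx2 was the member lost when 1 array was left out.

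Dorsal progenitor genes were lower in part. Of 17 tested 6 were lower and 0 higher, with a median of -1.33. Pax3 measured 0.45, 0.22 and 1.45 in the Lmx1a line, against 5.50, 2.37 and 5.56 in the wild type and fell by 3.77 ± 0.59 (adjusted p = 0.00178). Neurog1 measured 0.09, 0.10 and 3.64 in the Lmx1a line, against 4.73, 3.69 and 5.41 in the wild type and fell by 3.34 ± 0.68 (adjusted p = 0.00978). Replicate 3 of the line had 3.64 for Neurog1, near the lowest wild type array. Wild type replicate 2 was the lowest wild type array for all 6 called genes. Pax7 measured 0.11, 0.02 and -0.01 in the Lmx1a line, against 4.71, 0.11 and 4.73 in the wild type, and its change of -3.14 ± 0.79 (adjusted p = 0.0342) was lost without line replicate 1, 2 or 3 or wild type replicate 1 or 3 (-3.18 to -2.37, adjusted p = 0.0687 to 0.158). Zic2 at -1.33 ± 0.33 (adjusted p = 0.0315) was lost without line replicate 1, 2 or 3 or wild type replicate 1 or 3 (-1.36 to -0.84, adjusted p = 0.064 to 0.0962). Zic4 at -1.11 ± 0.31 (adjusted p = 0.0498) was lost without line replicate 1, 2 or 3 or wild type replicate 1 or 3 (-1.14 to -0.68, adjusted p = 0.0932 to 0.188), and Gsx1 at -1.05 ± 0.29 (adjusted p = 0.0493) was lost without line replicate 1, 2 or 3 or wild type replicate 1 or 3 (-1.08 to -0.63, adjusted p = 0.0917 to 0.174). Within the low-bioC set 0 of the 6 calls held, while all 6 kept their direction.

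Genes of midbrain GABA neurons, a neighbouring class, fell in part. Of 14 tested 4 were lower and 0 higher. Tal1, a selector of GABA neurons, measured -0.98, 0.00 and -0.91 in the Lmx1a line, against 3.71, 3.53 and 3.58 in the wild type and fell by 4.23 ± 0.76 (adjusted p = 0.00433). Zfpm2 (FOG2), a cofactor of GATA factors, measured -4.75, -3.21 and -3.02 in the Lmx1a line, against -0.40, -0.33 and -0.46 in the wild type and fell by 3.26 ± 0.41 (adjusted p = 4e-04). Slc32a1, the vesicular GABA transporter, measured -0.25, -0.27 and 2.69 in the Lmx1a line, against 3.66, 5.14 and 2.98 in the wild type. It changed by -3.21 ± 0.69 (adjusted p = 0.0138), a call lost without line replicate 1 (-2.72, adjusted p = 0.0574) or line replicate 2 (-2.71, adjusted p = 0.0536). Tal2 was near 0 in all 3 arrays of the line and in wild type replicate 2, at 0.09. It changed by -2.38 ± 0.63 (adjusted p = 0.0415) and was lost without line replicate 1, 2 or 3 or wild type replicate 1 or 3 (-2.41 to -1.51, adjusted p = 0.08 to 0.162). Gad1 at -2.21 ± 0.83 (adjusted p = 0.17) and Gad2 at -1.45 ± 0.76 (adjusted p = 0.375), the enzymes that make GABA, were not called. Replicate 3 of the line had 2.81 for Gad1 and 2.21 for Gad2, where the other 2 arrays of the line had 0.00 and -1.47 for Gad1 and 0.00 and -0.79 for Gad2. The glutamate transporter Slc17a6 measured 2.51, 2.92 and 2.98 in the Lmx1a line, against 1.41, 1.18 and 1.42 in the wild type and was not called at 1.46 ± 0.82 (adjusted p = 0.418).

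Of 16 tested genes of the isthmus and the anterior axis 7 were lower and 0 higher, where 1.36% of all genes were called lower. A positive change was seen in 6 of the 16. Gbx2, which sets the anterior hindbrain against the midbrain, measured -1.25, -1.31 and -1.38 in the Lmx1a line, against 2.31, 2.79 and 2.85 in the wild type and fell by 3.97 ± 0.36 (adjusted p = 2.05e-05). Meis2, a cofactor of Hox and Pbx proteins, measured -5.34, -4.40 and -4.0 in the Lmx1a line, against 0.43, 1.32 and 0.23 in the wild type and fell by 5.24 ± 0.87 (adjusted p = 0.00266), and all 4 of its probe sets were called. Meis1 fell by 4.18 ± 0.81 (adjusted p = 0.00717). The Iroquois factors Irx2, Irx1 and Irx5 fell together. Irx2 measured -1.73, -0.66 and -1.49 in the Lmx1a line, against 1.85, 1.83 and 1.76 in the wild type and fell by 3.11 ± 0.28 (adjusted p = 1.98e-05). Irx1 fell by 2.11 ± 0.37 (adjusted p = 0.00352) and Irx5 by 1.74 ± 0.34 (adjusted p = 0.00838). Sp8 measured -0.82, -1.34 and 0.22 in the Lmx1a line, against 2.86, 0.13 and 3.29 in the wild type, with overlapping arrays, and its change of -2.74 ± 0.70 (adjusted p = 0.0358) was lost without line replicate 1 or 2 or wild type replicate 1 or 3 (-2.65 to -2.14, adjusted p = 0.0898 to 0.15).

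Of the Hox genes of paralog groups 1 to 3, 3 of 7 were lower and 0 higher, against 1.36% of all genes called lower. Hoxb2 measured -6.85, -6.91 and -6.63 in the Lmx1a line, against -1.64, 0.13 and -2.15 in the wild type and fell by 5.58 ± 1.15 (adjusted p = 0.0104). Hoxa2 measured -4.03, -4.12 and -4.14 in the Lmx1a line, against 0.41, 1.70 and 0.30 in the wild type and fell by 4.90 ± 0.71 (adjusted p = 0.00106). Hoxa3 at -2.01 ± 0.48 (adjusted p = 0.0267) was lost without line replicate 1 or 3 or wild type replicate 1 or 2 (-2.11 to -1.58, adjusted p = 0.0569 to 0.0858), and its other probe set with an SD above 1 changed by -0.66. Hoxb3, at -3.73 ± 1.08 (adjusted p = 0.0651), was not called although its arrays did not overlap.

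In paralog groups 4 to 9, which are silent in the midbrain of the embryo, 6 of 16 were lower and 0 higher. The share called lower over all genes was 1.36%. Hoxc8 measured -0.19, -0.21 and -0.34 in the Lmx1a line, against 4.49, 5.09 and 1.97 in the wild type and fell by 4.10 ± 0.77 (adjusted p = 0.00585). Hoxb9 measured -0.02, -0.10 and -0.13 in the Lmx1a line, against 4.10, 4.19 and 1.36 in the wild type and fell by 3.30 ± 0.56 (adjusted p = 0.003). Wild type replicate 3 had the lowest wild type value for each of the 6 called genes. Hoxa9 fell by 3.61 ± 0.64 (adjusted p = 0.00399) and Hoxb6 by 3.34 ± 0.42 (adjusted p = 0.00036). Hoxa5 at -2.94 ± 0.71 (adjusted p = 0.0281) was lost without line replicate 1 or 3 or wild type replicate 1 or 2 (-2.90 to -2.36, adjusted p = 0.0666 to 0.133), and Hoxc6 at -1.95 ± 0.51 (adjusted p = 0.0414) was lost without line replicate 1, 2 or 3 or wild type replicate 1 or 2 (-1.98 to -1.26, adjusted p = 0.0796 to 0.132). The wild type cells that held these higher Hox values are labelled as dorsal midbrain. Other probe sets of Hoxa9 and Hoxa5 that varied over the series changed by 0.01 and -0.35, and with the mean of a gene's probe sets the calls of Hoxa9, Hoxa5 and Hoxa3 were lost. Within the low-bioC set, which leaves out wild type replicate 3, all 9 Hox calls held, and with the labelling covariate 0.

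**Figure D3:**
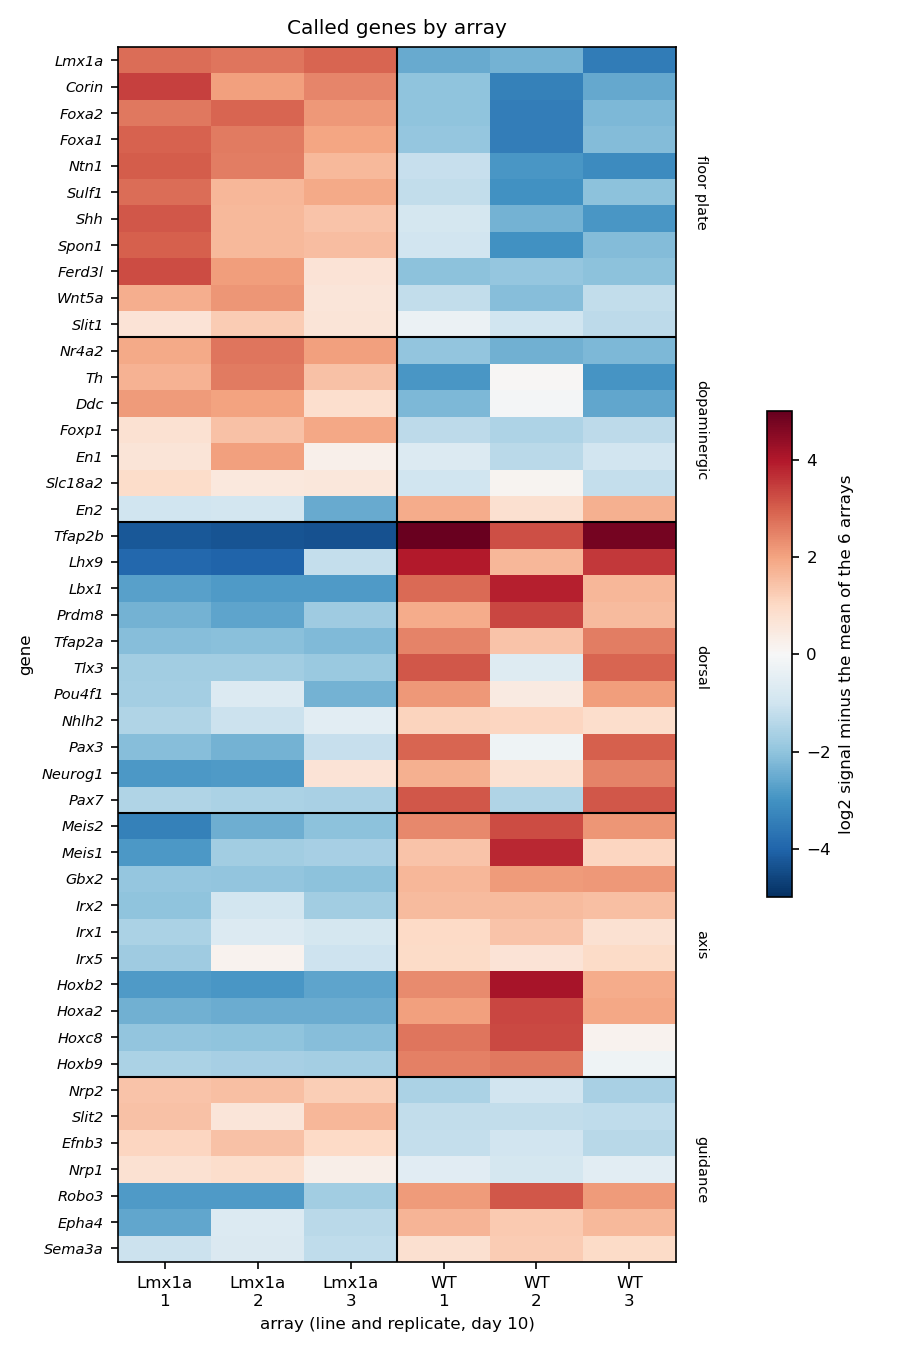
Log2 signal minus the mean of the 6 arrays (colour) for 46 called genes (rows, grouped by role) on the 3 arrays of the Lmx1a line and the 3 of the FGF8 wild type (columns). Floor plate and dopaminergic genes other than En2 are red in the line; Pax7, Tlx3 and Pax3 show wild type replicate 2 below replicates 1 and 3.

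Signalling genes were called in several pathways, where 1.96% of all genes were called higher and 1.36% lower. In the hedgehog pathway 3 of 12 were lower and 0 higher. Gli3, the main repressor of the pathway, measured -0.29, -0.35 and 0.17 in the Lmx1a line, against 6.32, 1.36 and 6.56 in the wild type and fell by 4.90 ± 0.95 (adjusted p = 0.00717). The co-receptors Gas1 and Boc had 4.32 and 4.53, and 3.71 and 4.01, in wild type replicates 1 and 3, but 0.67 and 1.04 in wild type replicate 2. Gas1 at -3.52 ± 0.79 (adjusted p = 0.0182) was lost without line replicate 1 or wild type replicate 1 or 3 (-3.19 to -2.84, adjusted p = 0.064 to 0.0962). Boc at -2.97 ± 0.71 (adjusted p = 0.0264) was lost without line replicate 1, 2 or 3 or wild type replicate 1 or 3 (-2.99 to -2.42, adjusted p = 0.055 to 0.12). Ptch1, Gli1 and Hhip, which hedgehog signalling turns on, were not called. Ptch1 was at 0.83 ± 0.42 (adjusted p = 0.353) with groups apart, Gli1 at 0.39 ± 0.61 (adjusted p = 0.785) and Hhip at 0.64 ± 0.79 (adjusted p = 0.752). So the ligand Shh was called higher, while these 3 pathway targets were not called. No call in the hedgehog list held within the low-bioC set, whose fit has fewer arrays. The call of Gli3 held without any single array, wild type replicate 3 included.

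Of 12 retinoic acid genes 2 fell. Cyp26b1, which breaks retinoic acid down, measured -0.29, -1.11 and -1.22 in the Lmx1a line, against 4.76, 2.33 and 4.31 in the wild type and fell by 4.67 ± 0.43 (adjusted p = 2.31e-05). Crabp1, which binds it in the cytoplasm, measured -1.35, -0.92 and -1.65 in the Lmx1a line, against 2.17, 2.36 and 3.14 in the wild type and fell by 3.86 ± 0.45 (adjusted p = 0.000214). Of 37 Wnt and BMP genes 3 were higher and 3 lower. Id4, an inhibitor of helix-loop-helix factors, measured -1.96, -1.90 and -1.59 in the Lmx1a line, against 0.20, 0.55 and 0.21 in the wild type and fell by 2.13 ± 0.25 (adjusted p = 0.000241). It was the single call of that list that no array removal ended. Dkk3 measured 0.03, 0.00 and -0.57 in the Lmx1a line, against -4.15, -4.74 and -3.30 in the wild type and changed by 3.88 ± 0.86 (adjusted p = 0.0164), lost without wild type replicate 1 (3.84, adjusted p = 0.0596). The receptor Fzd5 at 3.16 ± 0.83 (adjusted p = 0.0412) was lost without line replicate 1 or 3 or wild type replicate 1, 2 or 3 (2.30 to 3.20, adjusted p = 0.0728 to 0.121). The ligand Bmp5, whose other probe sets changed by 0.50 and 1.66 without a call, at 2.40 ± 0.57 (adjusted p = 0.0245) was lost without line replicate 2 or wild type replicate 1, 2 or 3 (2.06 to 2.45, adjusted p = 0.0551 to 0.0803). Wnt7a at -2.50 ± 0.52 (adjusted p = 0.0112) was lost without wild type replicate 1 (-2.19, adjusted p = 0.0627) or wild type replicate 3 (-2.17, adjusted p = 0.0564), and Fzd10 at -2.06 ± 0.52 (adjusted p = 0.0349) was lost without line replicate 1, 2 or 3 or wild type replicate 1 or 3 (-2.12 to -1.54, adjusted p = 0.068 to 0.162). Of 19 FGF genes 1 was lower: Fgf15 at -1.07 ± 0.28 (adjusted p = 0.0431), lost without line replicate 1, 2 or 3 or wild type replicate 1 or 3 (-1.10 to -0.74, adjusted p = 0.0841 to 0.192).

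Axon guidance genes changed in both directions. Of 46 tested 5 were higher and 4 lower, with a median of 0.10, where 3.31% of all genes were called in either direction. The semaphorin receptor Nrp2 measured 0.68, 0.77 and 0.49 in the Lmx1a line, against -2.32, -1.68 and -2.33 in the wild type and rose by 2.76 ± 0.33 (adjusted p = 0.000268). Its paralog Nrp1 rose by 1.30 ± 0.20 (adjusted p = 0.00135). Slit2, an axon repellent, measured 0.85, 0.00 and 1.07 in the Lmx1a line, against -1.84, -1.84 and -1.85 in the wild type and rose by 2.48 ± 0.38 (adjusted p = 0.00147). Efnb3, an ephrin of the midline, measured 1.15, 1.56 and 1.06 in the Lmx1a line, against -1.10, -0.87 and -1.33 in the wild type and rose by 2.35 ± 0.35 (adjusted p = 0.00111). Sema3d changed by 1.81 ± 0.46 (adjusted p = 0.0344) and was lost without line replicate 1 or 2 or wild type replicate 1 or 2 (1.39 to 1.76, adjusted p = 0.0789 to 0.114). Robo3, which lets commissural axons cross the midline, measured -0.06, -0.07 and 1.03 in the Lmx1a line, against 4.87, 5.88 and 4.91 in the wild type and fell by 4.92 ± 0.47 (adjusted p = 3.46e-05). Epha4 measured -1.74, 0.17 and -0.49 in the Lmx1a line, against 2.54, 2.19 and 2.50 in the wild type and fell by 3.10 ± 0.36 (adjusted p = 0.000214), and Sema3a fell by 2.02 ± 0.40 (adjusted p = 0.00933). The other Slit receptors Robo1 and Robo2 were not called, at -0.54 ± 0.24 (adjusted p = 0.284) and 0.42 ± 0.69 (adjusted p = 0.79). Of the 9 calls 8 held within the low-bioC set.

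Of 29 neuropeptide and granule genes 5 were higher and 2 lower, where 3.31% of all genes were called in either direction. Sst (somatostatin) measured -1.74, -1.12 and -0.49 in the Lmx1a line, against 2.75, 3.04 and 4.16 in the wild type and fell by 4.43 ± 0.43 (adjusted p = 4.13e-05). Chgb, a granule protein, measured 1.58, 1.26 and 1.69 in the Lmx1a line, against -0.78, 0.13 and -0.68 in the wild type and rose by 1.95 ± 0.21 (adjusted p = 0.000126). Pomc measured 2.99, 1.73 and 5.50 in the Lmx1a line, against -0.02, 0.04 and -0.40 in the wild type, with replicate 3 of the line highest, and its change of 3.53 ± 0.79 (adjusted p = 0.0175) was lost without wild type replicate 1 (3.59, adjusted p = 0.0564) or wild type replicate 3 (3.40, adjusted p = 0.0614). Chga at 1.18 ± 0.25 (adjusted p = 0.0128) was lost without wild type replicate 1 (1.15, adjusted p = 0.0543) or wild type replicate 3 (1.05, adjusted p = 0.0602). Vgf at 2.34 ± 0.62 (adjusted p = 0.0417) was lost without line replicate 1, 2 or 3 or wild type replicate 1 or 2 (1.96 to 2.50, adjusted p = 0.0669 to 0.12), Adcyap1 at 2.11 ± 0.57 (adjusted p = 0.0451) was lost without line replicate 2 or 3 or wild type replicate 1 or 3 (1.59 to 1.99, adjusted p = 0.104 to 0.151), and neurotensin (Nts) at -3.0 ± 0.79 (adjusted p = 0.0417) was lost without line replicate 1 or 2 or wild type replicate 1, 2 or 3 (-3.26 to -2.42, adjusted p = 0.07 to 0.146).

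Some general neuronal genes were called in each direction, where 3.31% of all genes were called. Of 25 synaptic genes 2 were higher and 1 lower. The vesicle protein Sv2b measured 0.00, 0.58 and 1.33 in the Lmx1a line, against -3.18, -3.22 and -2.82 in the wild type and rose by 3.71 ± 0.50 (adjusted p = 0.000642). Syt13 at 2.23 ± 0.56 (adjusted p = 0.0325) was lost without line replicate 2 or 3 or wild type replicate 1 or 2 (1.88 to 2.10, adjusted p = 0.0831 to 0.116), and Nrxn3 at -1.77 ± 0.41 (adjusted p = 0.0226) was lost without line replicate 2 (-1.33, adjusted p = 0.0777) or wild type replicate 2 (-1.46, adjusted p = 0.0729). Of 20 cytoskeletal genes 1 was higher and 2 lower, and 5 of the 20 had a positive change. The intermediate filament Prph (peripherin) measured 0.00, 1.44 and -0.92 in the Lmx1a line, against -4.19, -2.56 and -3.83 in the wild type and rose by 3.70 ± 0.65 (adjusted p = 0.00399). It was the call of the probe set used, and its 3 other probe sets were not called. The neurofilament subunits Nefl at -1.08 ± 0.25 (adjusted p = 0.024), lost without line replicate 1 or 3 or wild type replicate 1 or 3 (-1.13 to -0.93, adjusted p = 0.0612 to 0.0817), and Nefm at -1.22 ± 0.26 (adjusted p = 0.0151), lost without line replicate 3 or wild type replicate 1 or 3 (-1.19 to -1.04, adjusted p = 0.0523 to 0.0635), were lower. Of 57 channel and receptor genes 1 was higher and 4 lower, where 3.31% of all genes were called in either direction. The list median was 0.00, the changes ran from -2.72 to 2.23, and 18 of the 57 had an unadjusted p under 0.05. The potassium channel Kcna1 measured -0.73, -0.01 and -0.03 in the Lmx1a line, against 2.48, 3.04 and 1.85 in the wild type and fell by 2.72 ± 0.45 (adjusted p = 0.00257). The nicotinic subunit Chrna5 measured -0.35, 0.30 and -0.29 in the Lmx1a line, against 1.48, 1.58 and 2.26 in the wild type and fell by 1.88 ± 0.35 (adjusted p = 0.00546). Chrna7 at -1.07 ± 0.24 (adjusted p = 0.0169) was lost without line replicate 3 or wild type replicate 1 or 3 (-1.03 to -0.96, adjusted p = 0.0547 to 0.0766), Grik3 at -1.78 ± 0.45 (adjusted p = 0.0334) was lost without line replicate 2 or wild type replicate 1, 2 or 3 (-1.96 to -1.20, adjusted p = 0.0522 to 0.107), and Kcnc2 at 1.70 ± 0.44 (adjusted p = 0.0369) was lost without line replicate 2 or 3 or wild type replicate 1, 2 or 3 (1.45 to 1.84, adjusted p = 0.065 to 0.123). The serotonin receptor Htr1b measured 3.72, 3.24 and 1.59 in the Lmx1a line, against -0.86, -1.01 and -1.07 in the wild type and rose by 3.83 ± 0.45 (adjusted p = 0.000214), the single call among 5 serotonergic genes.

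Motile cilium genes are expressed by floor plate and ependymal cells. Of 29 tested 6 were higher and 0 lower, and 18 of the 29 lay within 0.5 of their median on all 6 arrays. The axonemal gene Rsph9 measured -0.28, 0.00 and 0.16 in the Lmx1a line, against -2.0, -2.04 and -1.84 in the wild type and rose by 1.92 ± 0.22 (adjusted p = 0.00016), the single call that no array removal ended. The master factor Foxj1 measured 2.0, 2.23 and 1.19 in the Lmx1a line, against -0.41, -0.79 and -0.39 in the wild type, and its change of 2.34 ± 0.59 (adjusted p = 0.0354) was lost without line replicate 1 or 2 or wild type replicate 1, 2 or 3 (2.12 to 2.41, adjusted p = 0.0791 to 0.0963). Rfx2, which acts with it, changed by 2.59 ± 0.55 (adjusted p = 0.0126) and was lost without wild type replicate 1 (2.55, adjusted p = 0.0513). The axonemal dynein Dnah11 at 2.23 ± 0.60 (adjusted p = 0.0465) was lost without line replicate 1 or 2 or wild type replicate 1, 2 or 3 (2.01 to 2.40, adjusted p = 0.095 to 0.133), and Dnah9 at 1.84 ± 0.49 (adjusted p = 0.0415) was lost without line replicate 1 or 2 or wild type replicate 1, 2 or 3 (1.43 to 1.95, adjusted p = 0.0571 to 0.151). Enkur measured 2.82, 1.83 and 0.00 in the Lmx1a line, against -0.74, -0.98 and -0.92 in the wild type. Its change of 2.43 ± 0.64 (adjusted p = 0.0418) was lost without line replicate 1 or 2 or wild type replicate 1, 2 or 3 (1.79 to 2.50, adjusted p = 0.0839 to 0.155). The mean of the list was 0.73, 0.45 and 0.15 in the line's replicates 1, 2 and 3, and that of the floor plate list was 2.52, 2.35 and 2.08. Of the 6 calls 2 held with the bioC division as a block, 3 within the low-bioC set and 0 with the labelling covariate.

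Some of the largest rises outside the lists lay beside genes of the midline factors. Ttc6 measured 3.16, 3.01 and 2.89 in the Lmx1a line, against -1.99, -2.02 and -2.87 in the wild type and rose by 5.31 ± 0.46 (adjusted p = 1.93e-05). Its annotated span overlaps that of Foxa1 in GRCm38.p6, and whether the probe sets of either gene read transcripts of the other was not tested. Another probe set of Ttc6 that varied over the series changed by 0.69 and was not called. The long noncoding RNA 9030622O22Rik, annotated within 50 kb of Foxa2, measured 2.45, 2.26 and 1.58 in the Lmx1a line, against -1.94, -3.66 and -3.52 in the wild type and rose by 5.14 ± 0.52 (adjusted p = 5.21e-05). Rxrg, the retinoid X receptor within 50 kb of Lmx1a, was named after its values were seen, and it rose by 2.50 ± 0.56 (adjusted p = 0.0171). Called neighbours within 50 kb of other large rises were Atp10d beside Corin, at 2.37, and Bmp1 beside Lgi3, at 1.88.

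Further genes were among the 15 largest rises. Wif1, a secreted Wnt inhibitor, measured 3.83, 3.16 and 3.66 in the Lmx1a line, against -1.46, -1.44 and -1.90 in the wild type and rose by 5.15 ± 1.05 (adjusted p = 0.0103). Kitl, the ligand of Kit, measured 5.81, 4.57 and 4.01 in the Lmx1a line, against 0.00, -0.63 and -0.41 in the wild type and rose by 5.15 ± 0.87 (adjusted p = 0.00297). Its receptor Kit, named after its values were seen, measured -1.38, -0.50 and -1.19 in the Lmx1a line, against 1.78, 1.98 and 1.51 in the wild type and fell by 2.78 ± 0.46 (adjusted p = 0.00265). Metrnl, a secreted relative of meteorin, rose by 5.16 ± 0.68 (adjusted p = 0.000524). Iapp, the islet amyloid peptide, measured 5.0, 5.28 and 6.41 in the Lmx1a line, against 0.00, -0.02 and 1.63 in the wild type and rose by 5.02 ± 0.67 (adjusted p = 0.000582). It had a mean of 0.36 in the same line at day 14. Lgi3, a secreted leucine-rich protein, rose by 4.85 ± 0.93 (adjusted p = 0.0071), with 0.00 in replicate 3 of the line, and other probe sets of it changed by 1.09 and 2.24 without a call. Ppfibp2, a liprin, rose by 5.17 ± 0.76 (adjusted p = 0.00108). Slc35d3, a putative sugar transporter, rose by 5.02 ± 1.04 (adjusted p = 0.011), and Cmtm8 by 4.88 ± 0.73 (adjusted p = 0.00123). Efcab1, which encodes an EF-hand protein, measured 3.65, 2.99 and 2.23 in the Lmx1a line, against -1.89, -2.54 and -2.70 in the wild type and rose by 5.33 ± 0.59 (adjusted p = 0.000134). Arrays apart between the groups were a condition for entering the 15 largest rises. No single array ended the call of these 9 rises.

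Of the 15 largest falls, 5 lay outside the lists described above. Lamp5, a membrane protein of neuronal endosomes, measured -0.73, -0.77 and -0.80 in the Lmx1a line, against 5.51, 7.32 and 4.86 in the wild type and fell by 6.67 ± 0.66 (adjusted p = 4.43e-05). Nkx1-2 measured 0.14, 0.53 and -0.07 in the Lmx1a line, against 5.68, 6.77 and 6.50 in the wild type and fell by 6.12 ± 1.04 (adjusted p = 0.00299). Shox2, a homeodomain factor of glutamatergic interneurons, measured -3.11, -1.49 and -2.29 in the Lmx1a line, against 2.75, 2.28 and 2.66 in the wild type and fell by 4.86 ± 0.65 (adjusted p = 0.000587), while its other probe set, at -1.96, was not called. Mab21l1 fell by 4.67 ± 0.41 (adjusted p = 1.98e-05), and Moxd1, a relative of dopamine beta-hydroxylase, fell by 4.53 ± 0.58 (adjusted p = 0.000413). Dbh itself, which makes noradrenaline from dopamine, measured 0.13, 0.02 and -0.02 in the Lmx1a line, against 2.30, 2.98 and 3.47 in the wild type and fell by 2.87 ± 0.18 (adjusted p = 3.66e-07). It was the single call among 4 noradrenergic genes.

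**Figure D4:**
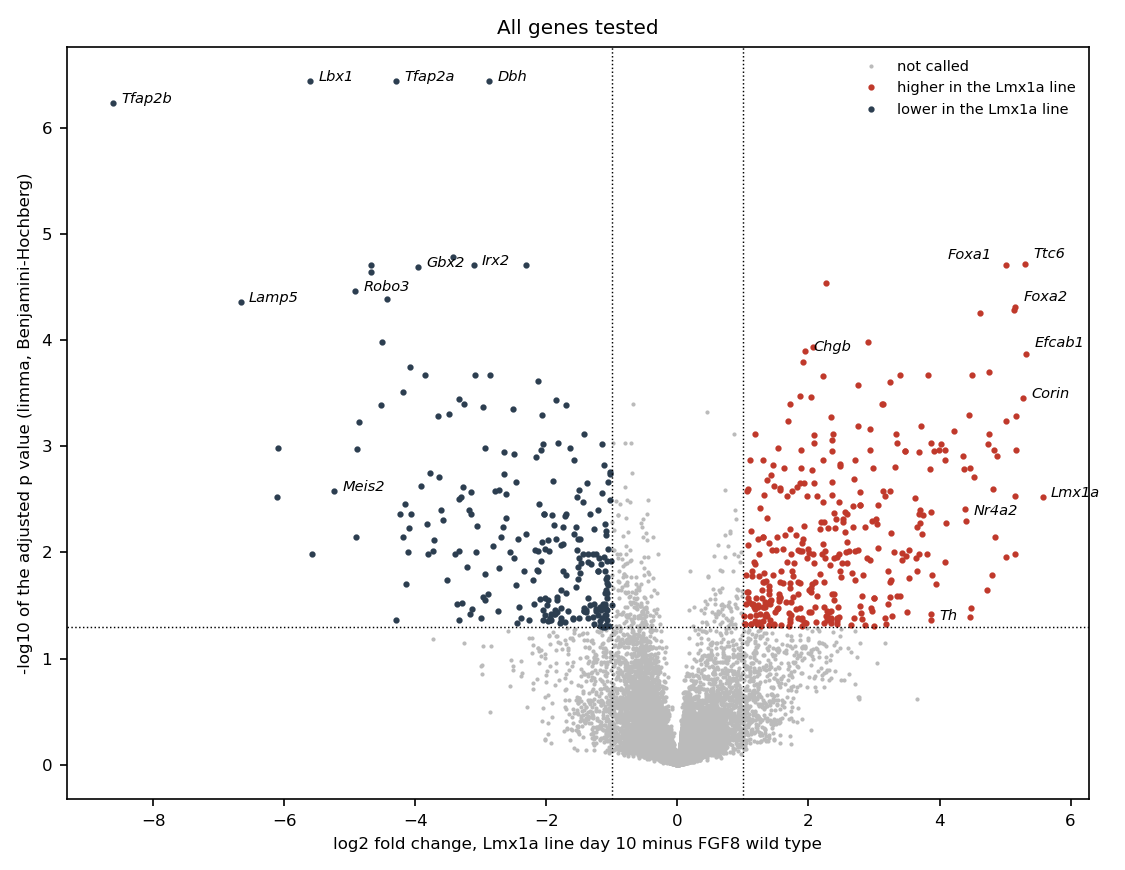
Log2 change (x axis, Lmx1a line minus wild type) against -log10 of the adjusted p (y axis) for all 18193 genes; dotted lines mark the thresholds of 1 and 0.05. The 356 genes called higher are red and the 247 called lower are dark blue, with Tfap2b farthest from 0 at -8.61.

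Over all genes 356 were higher and 247 lower, or 1.96% and 1.36%, and 3004 had an unadjusted p under 0.05. The arrays of 353 of the genes called higher and 226 of those called lower did not overlap between the groups, against 7.05% and 8.84% of all genes. Calling favours genes whose arrays lie apart, so this gives the calls no separate support. Without wild type replicate 1 the counts were 214 and 144, without line replicate 1 156 were lower, and without wild type replicate 2 453 were lower. Of the 603 calls 297 held without any single array, 504 with the bioC division as a block and 241 within the low-bioC set, where all 603 kept their direction. With the mean of each gene's probe sets 14 of the 128 named calls were lost, those of Wnt8b, Zic4, Slc32a1, Hoxa3, Hoxa9, Hoxa5, Wnt7a, Bmp5, Nrp1, Chrna7, Grik3, Rfx2, Dnah9 and Esrrb.

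Arrays that stood apart from their replicates bear on several of these values. Over 2068 genes with an SD above 1 the correlation of wild type replicate 2 was 0.53 with replicate 1 and 0.37 with replicate 3, while that of replicates 1 and 3 was 0.90. In it 184 genes lay more than 3 units below the mean of the other 2, where those agreed within 1, and 7 lay above. The mean of 25 cell cycle and progenitor genes was 0.27 to 0.91 in the line, and -1.58 in wild type replicate 2 against 1.64 and 2.06 in the other wild type arrays. No gene of that list was called, with 4 of 25 at an unadjusted p under 0.05. Tph2, the serotonin-making enzyme, was at 1.13 in wild type replicate 2 against -2.0 and -3.97 in the others. The line's arrays correlated at 0.62 to 0.65 with each other.

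Replicate 3 of the line was apart from the other 2 in single genes of several kinds. Six3 measured 2.92, 0.75 and 7.06 in replicates 1, 2 and 3 of the line, Six6 4.41, 0.12 and 6.45, and Fezf2 1.14, 1.78 and 6.18. Olig2 measured 0.58, 0.91 and 4.89. These genes were named after their values were seen, and the collagen Col1a2, at -2.57, -3.09 and 1.20, was apart as well. The mesenchymal mean was -0.80, -1.0 and 0.82 in replicates 1, 2 and 3. In replicate 3, 28 genes lay more than 3 units above the mean of the other 2, where those agreed within 1, and 3 below; in replicate 1, 11 lay above and 20 below. Without line replicate 3 and wild type replicate 2 together, 379 genes were higher and 602 lower, and 287 and 219 of the calls made with all arrays held.

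**Figure D5:**
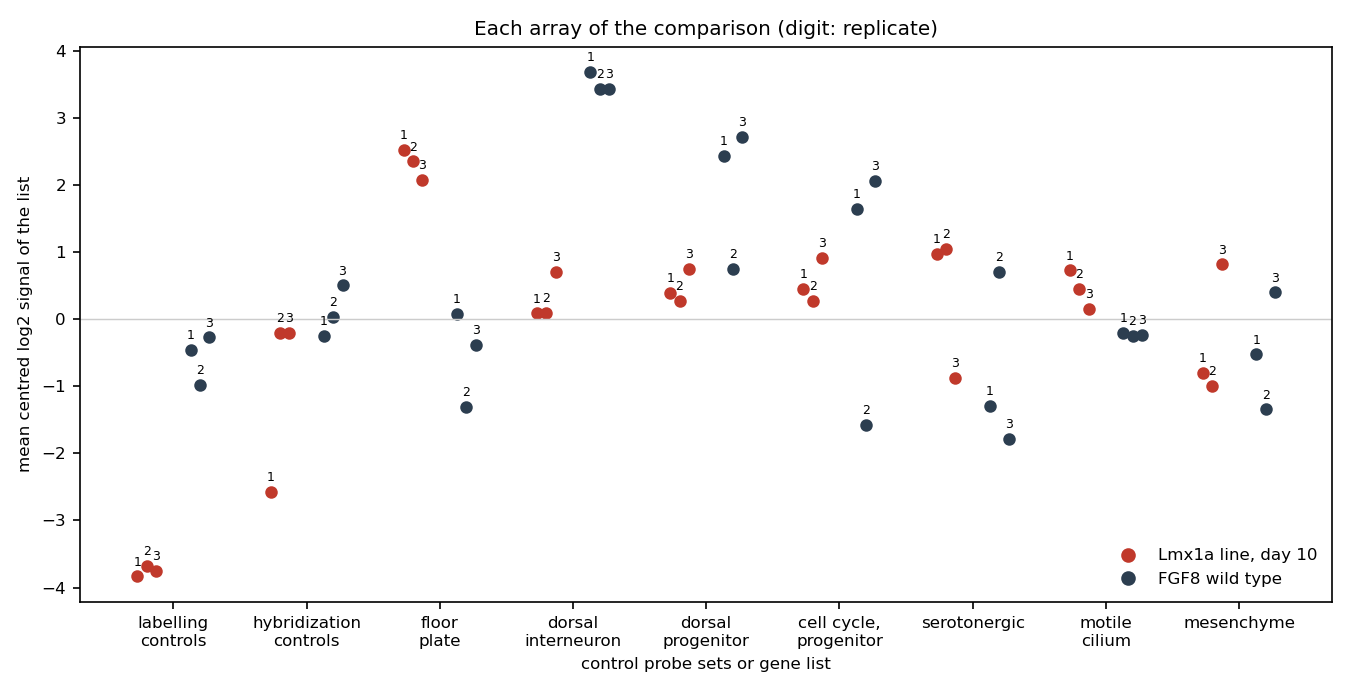
Mean centred log2 signal (y axis) of control probe sets and gene lists (x axis) on each array of the Lmx1a line (red) and the FGF8 wild type (dark blue), with the replicate number beside each point. Labelling controls lie at -3.83 to -3.68 in the line and -0.98 to -0.27 in the wild type; wild type replicate 2 is lowest for cell cycle genes at -1.58.

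The 24 labelling control probe sets averaged -3.83, -3.68 and -3.75 in the line, against -0.46, -0.98 and -0.27 in the wild type. Labelling and line cannot be told apart from these 6 arrays. A fit over all 21 arrays with the mean of these controls as a covariate, which must extend its slope beyond the lowest value of any other array (-1.80), called 18 genes higher and 30 lower. Among the 128 named genes called without the covariate 22 were still called and 106 were not. In the floor plate list 2 of 11 calls held (Foxa1 and Foxa2), and in the dopaminergic list 0 of 7. None of the 9 Hox calls held, nor any of the 7 subthalamic, 6 dorsal progenitor, 6 motile cilium, 6 Wnt and BMP, 5 channel and receptor, 3 hedgehog or 3 cytoskeletal calls. In the dorsal interneuron list 5 of 12 held, in the isthmus and axis list 2 of 7, in the guidance list 2 of 9 and in the neuropeptide list 2 of 7. Over all genes 38 of the 603 calls held. In that fit Lmx1a was at 4.26 (adjusted p = 0.335), Corin at 4.63 (adjusted p = 0.0988) and Nr4a2 at 2.78 (adjusted p = 0.446). The direction was unchanged for all 128. The mean of the 12 hybridization controls was -2.57 in line replicate 1, against -0.20 in both other arrays of the line and -0.25 to 0.50 in the wild type.

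Markers of other cell types were mostly near 0 or mixed. Of 11 endoderm genes 9 lay within 0.5 of their median on all 6 arrays, and of 8 blood vessel genes 7 did. Kdr, a vascular receptor, measured 0.94, 2.2 and 1.66 in the Lmx1a line, against -0.07, 0.00 and -0.11 in the wild type, and its change of 1.66 ± 0.40 (adjusted p = 0.0291) was lost without line replicate 2 or 3 or wild type replicate 1 or 3 (1.36 to 1.65, adjusted p = 0.0623 to 0.0962). Of 9 mesenchymal genes 2 were higher. Postn (periostin) measured 2.96, 2.04 and 3.16 in the Lmx1a line, against -1.24, -1.49 and 0.61 in the wild type and changed by 3.42 ± 0.72 (adjusted p = 0.0118), a call lost without wild type replicate 1 (3.15, adjusted p = 0.0597). Twist1 measured 1.43, 1.90 and 1.35 in the Lmx1a line, against -1.23, -2.96 and -0.84 in the wild type and changed by 3.24 ± 0.77 (adjusted p = 0.0264), a call lost without line replicate 1 or 2 or wild type replicate 1 or 2 (2.60 to 3.46, adjusted p = 0.0559 to 0.0845). The mesenchymal mean ran from -1.0 to 0.82 in the line and from -1.35 to 0.40 in the wild type, and its collagens Col1a1, Col1a2 and Col3a1 were not called. The radial glia and astrocyte transporter Slc1a3 measured 1.01, -0.41 and 0.56 in the Lmx1a line, against -1.75, -4.47 and -2.24 in the wild type and changed by 3.21 ± 0.79 (adjusted p = 0.0304), lost without line replicate 1 or 3 or wild type replicate 2 or 3 (2.38 to 3.50, adjusted p = 0.0511 to 0.0947). It was the single call among 7 astroglial genes. The pluripotency gene Esrrb measured 0.00, 0.37 and -0.09 in the Lmx1a line, against 1.95, 1.20 and 2.45 in the wild type and fell by 1.78 ± 0.35 (adjusted p = 0.00853), with 1 of 9 genes of its list called. The muscle actin Actc1 measured -1.29, -0.18 and 0.12 in the Lmx1a line, against 3.54, 2.64 and 4.68 in the wild type and fell by 4.07 ± 0.73 (adjusted p = 0.00438), with 1 of 7 called. Tbx20, the single call among 11 motor neuron genes, at -3.17 ± 0.81 (adjusted p = 0.0376), was lost without wild type replicate 1, 2 or 3 (-3.28 to -3.03, adjusted p = 0.0577 to 0.125). Its arrays in the line read 0.31, 0.00 and -4.14, and without line replicate 3 the change was -1.73 (adjusted p = 0.0233). No oligodendrocyte gene of 6 was called, with 1 at an unadjusted p under 0.05, and no endoderm gene of 11, with 0.

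The same genes were set against the day 10 serotonergic neurons of the Nkx2.2 line, made with SHH and FGF8, a comparison that uses the same Lmx1a arrays. Of all genes 2.2% were called higher and 2.87% lower. Among the 157 named genes 22 were higher and 21 lower. Of the 157, 128 were called against the wild type, and outside the floor plate and dopaminergic lists that call was a condition for naming. With the Lmx1a arrays shared, these counts cannot be read against the shares of all genes. Of 47 tested members of the floor plate and dopaminergic lists 7 were higher and 5 lower. Foxa2 at 1.36 ± 0.51 (adjusted p = 0.126), Corin at 1.49 ± 0.66 (adjusted p = 0.197) and Shh at 1.92 ± 0.75 (adjusted p = 0.141) were not called against the Nkx2.2 line. Lmx1a at 6.74 ± 0.95 (adjusted p = 0.00072), Nr4a2 at 3.66 ± 0.77 (adjusted p = 0.00922) and Th at 4.33 ± 1.03 (adjusted p = 0.0175) were higher. Foxa1 was higher as well, by 1.85 ± 0.45 (adjusted p = 0.0194). Ddc, Slc18a2, Gch1, Maob and Maoa were lower in the Lmx1a line than in the Nkx2.2 line. No array of the Nkx2.2 line lies in the low-bioC set and all 3 of the Lmx1a line do, so there is no value within that set. With the bioC division as a block, estimated from the groups that span it, 22 named genes were called and 6 of these 12, while the calls of Th, Nr4a2 and Foxa1 were lost. With the labelling covariate 2 named genes were called and 1 of these 12.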

How the data were processed

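RNA of 21 samples of stem cell-derived neurons was hybridized to Affymetrix mouse expression arrays, 1 sample per array and 3 per group. GCRMA made the deposited log2 values, per the submitters' processing notes. Which version was used is not given here. The values are centred per probe set, and up to 13 of the 21 values of a probe set lie above 0, so the median was taken over other arrays as well. Of 45037 probe sets that are no controls, 34945 name 1 gene, 932 several and 9160 none in the platform annotation. The probe set whose SD across all arrays was largest stood for each of the 18193 genes. A model with 7 group means was fitted over all 21 arrays with limma (version 3.58.1, R 4.3.3; 14 residual and 1.11 prior degrees of freedom), with Benjamini-Hochberg adjustment over all genes. Adjusted p-values come from that fit, except those given without an array, with a block or covariate, or over all probe sets. The exceptions come from fits of the same kind with that change. The procedure was tested on simulated data.

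The members and lists were chosen with earlier results of these data known. The 30 lists hold 577 genes, of which 531 were tested. Named genes are the 4 markers and all tested floor plate and dopaminergic genes, the 15 largest called rises and falls with arrays apart, and up to 8 called genes of each other list. Genes outside this rule are said to be chosen after their values were seen, or are given as values of list members that were not called. Alternatives changed the arrays, probe sets, normalization, filter, threshold, moderation and blocks. Deviations from the group means correlated at a mean of 0.00603 over 63 same-numbered pairs of arrays of different groups. Over 126 pairs with different numbers the mean was -0.00337. Between the line and the wild type the same-numbered correlations were 0.0479, 0.156 and 0.13. The arrays were not treated as paired, and a fit with the replicate as a block is given below. The number of arrays limits the precision.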

Additional observations from a re-analysis of the deposited data

Results flagged for a closer look

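In the floor plate and dopaminergic lists 12 of 47 tested genes differed between the Lmx1a line and the Nkx2.2 line, both at day 10. Of these, 7 were higher and 5 lower in the Lmx1a line, where 2.2% of all genes were called higher and 2.87% lower. Each was a direct test of the difference between the lines in the same fit. Both lines would be set against the same wild type arrays, so this difference is also that of their changes from wild type. The higher ones in the Lmx1a line were Lmx1a by 6.74 (adjusted p = 0.00072), Th by 4.33 (adjusted p = 0.0175) and Nr4a2 by 3.66 (adjusted p = 0.00922). Neurog2 at 2.82 (adjusted p = 0.0114), Bmp7 at 2.76 (adjusted p = 0.0339), Bnc2 at 2.39 (adjusted p = 0.019) and Foxa1 at 1.85 (adjusted p = 0.0194) were higher as well. The lower ones were Gch1, which makes a cofactor of monoamine synthesis, at -6.19 (adjusted p = 8.31e-05), Maob at -5.65 (adjusted p = 6.18e-07), Slc18a2 at -3.53 (adjusted p = 4.54e-05), Ddc at -2.79 (adjusted p = 0.0187) and Maoa at -2.39 (adjusted p = 0.0414). Ddc and Slc18a2 were thus higher in the Lmx1a line than in the wild type and lower than in the Nkx2.2 line. All 3 arrays of the Nkx2.2 line have high bioC control signals and all 3 of the Lmx1a line low ones. With the bioC division as a block, estimated from the groups that span it, 6 of the 12 were still called: Lmx1a at 6.29 (adjusted p = 0.0186), Gch1 at -7.17 (adjusted p = 0.00061), Maob at -5.66 (adjusted p = 8.72e-05), Ddc at -3.97 (adjusted p = 0.0153), Slc18a2 at -3.93 (adjusted p = 0.00061) and Maoa at -3.37 (adjusted p = 0.0422). The calls of Th, Nr4a2, Neurog2, Bmp7, Bnc2 and Foxa1 were lost, with adjusted p between 0.0659 and 0.235. Labelling controls averaged -3.83, -3.68 and -3.75 in the Lmx1a line, against 1.43, 1.25 and -1.12 in the Nkx2.2 line. With them as a covariate Maob alone of the 12 was called, at -4.34 (adjusted p = 0.00981). All 12 kept their direction in both fits.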

How the results depend on the processing

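The counts with all arrays were 356 higher and 247 lower, and 43 named genes differed from the Nkx2.2 line. With single arrays left out the counts ranged from 214 to 377 higher and from 144 to 453 lower. A fit on the 6 arrays alone gave 111 and 57, with 8 against the Nkx2.2 line. A threshold of 2 gave 211 and 118. Limma's treat gave 53 and 36, with 11 against the Nkx2.2 line. Array weights gave 1142 and 1078, with 83. The bioC division as a block gave 22 against the Nkx2.2 line, and the low-bioC set alone gave 182 higher and 126 lower. Labelling controls as a covariate, chosen after seeing the data, gave 18 and 30, with 2. Leaving out line replicate 3 and wild type replicate 2 together, also chosen after seeing the data, gave 602 lower. The cause of these shifts was not tested, other than fewer arrays or a stricter threshold where the setting itself says so. The replicate block gave 361 higher and 239 lower, and 120 of the 128 named calls held in it. Neurog2, which was not called, turned to -0.10 with array weights. All 128 named calls kept their sign in every alternative. In the leave-one-out fits 78 held throughout, and 44 were lost without wild type replicate 1. Of 73 named calls with more than 1 probe set 41 had another called the same way and 0 the other way.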

Other observations

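Genes of the serotonergic list varied between replicates of both groups. Slc6a4, the serotonin transporter, measured -0.06, 0.93 and -2.82 in the Lmx1a line, against -2.74, 2.07 and -3.12 in the wild type. The list mean was 0.98, 1.05 and -0.88 in the Lmx1a line, against -1.29, 0.71 and -1.78 in the wild type. Lef1, a Wnt pathway factor named after its values were seen, measured 0.09, 0.13 and 1.48 in the Lmx1a line, against 5.45, 0.08 and 5.13 in the wild type. Aspm, a gene of dividing cells also named after its values were seen, measured 0.51, 0.40 and 1.16 in the Lmx1a line, against 2.38, -3.32 and 3.00 in the wild type.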
